A study of Danio rerio with 246 samples.

Results

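NK-lysins and perforins are proteins with which killer lymphocytes damage the membranes of their targets. NK-lysins belong with mammalian granulysin to the saposin-fold family of small, positively charged proteins that disrupt microbial and cell membranes. Perforins assemble into pores, through which granzymes, the serine proteases of the same granules, reach the target cell. Zebrafish carry several copies of both kinds of gene. Copies that resemble each other may share reads, and how the counting treated shared reads is not given in the sources used here, so every value per copy below carries that limit.

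The genes described here are the rows of the deposited count table whose zebrafish symbol begins with nkl. or prf1. They were 8 of the 21876 rows, of which 19349 have a symbol in the name table. The 3 NK-lysin rows were nkl.2 (ENSDARG00000058673), nkl.3 (ENSDARG00000089202) and nkl.4 (ENSDARG00000044023). The 5 perforin rows were prf1.1 (ENSDARG00000030394), prf1.2 (ENSDARG00000021444), prf1.3 (ENSDARG00000001572), prf1.6 (ENSDARG00000024522) and prf1.9 (ENSDARG00000060662). For nkl.1 and prf1.7 the name tables pair no Ensembl identifier with the symbol, so these genes were not analysed here, and neither were prf1.5 and prf1.8. In the RefSeq annotation of assembly GRCz12tu, which is not the build of the files, nkl.4, nkl.3, nkl.2 and nkl.1 follow each other as neighbouring coding genes between tonsl and psmc1a. There prf1.9 lies next to prf1.1, and prf1.2, prf1.7 and prf1.8 follow each other, whereas prf1.3 has no perforin gene beside it.

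The study sorted fluorescent single cells of whole kidney marrow, where adult zebrafish make their blood, and profiled each with a modified Smart-seq2 protocol. Each of the 246 samples is 1 cell of 1 of 6 reporter lines. The titles name 31 cells lck_GFP_rag1 (plate 5), 38 lck_GFP (plate 2), 48 rag2_GFP (plate 2), 43 cd41_GFPlow (plate 3), 39 Runx123_GFP (plate 1) and 47 mpx_EGFP (plate 4). The labels do not say what genotype the ending rag1 stands for, which promoter drives each reporter, how old the fish were or how many fish gave the cells. A line is therefore 1 sample, no test between lines was possible, and line and plate cannot be told apart, except that lck_GFP and rag2_GFP share plate 2. All intervals below are 95% intervals. Those of levels and folds cover counting error only, and PCR copies of 1 molecule are not independent reads. Those of shares treat the cells of a line as independent draws. Neither kind covers differences between fish.

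Reads per cell ranged from 47630 to 2969770 over the series. The lck_GFP_rag1 cells had a median of 1218459 reads and 1065 detected genes, against 667513 reads and 925 genes in lck_GFP cells. Of 11 NK and cytotoxic marker genes, which hold no NK-lysin or perforin gene, none was without reads in lck_GFP_rag1, and their summed level was 10337 CPM (counts per 1000000 reads of the line) there and 1099.9 CPM in lck_GFP. Most of the lck_GFP_rag1 sum came from ccl36.1 at 4930 CPM, zbtb32 at 1657 CPM and ccl38.6 at 1302 CPM. The marker runx3 went the other way, with 246 CPM in lck_GFP_rag1 and 581 CPM in lck_GFP, and ifng1 was at only 1.29 CPM in lck_GFP_rag1. Of 12 T cell marker genes, 7 had 0 reads in lck_GFP_rag1, among them cd4-1 and cd8a, the genes of the T cell coreceptors, and the summed level was 906 CPM there against 6663 CPM in lck_GFP. The kinase gene lck itself was at 675 CPM in lck_GFP_rag1 and 853 CPM in lck_GFP. The marker sums thus run in opposite directions between the 2 lines. The gene lists were chosen with earlier results of these data known, so these sums describe the lines and are no separate support. Cells 9, 25 and 29 of lck_GFP_rag1 stood apart by macrophage markers. Cell 25 had the most reads and genes of its line (3301 genes) and 12 of 14 macrophage marker identifiers at 10 CPM or more, and cell 29 had the fewest reads (92121) and 6 of them. Cell 9 had 5 of them, summing to 4031 CPM, and the other cells of the line had at most 1. Some cells with 1 such marker had a higher sum, up to 9914 CPM in cell 15. That 1 marker was cd74a, which was at 10 CPM or more in 11 cells of the line. Among the lines cd74a was highest in rag2_GFP, at 5600 CPM, against 1182 CPM in cd41_GFPlow, so by itself it sets no cell apart. Cell 9 thus stood apart by the number of markers and not by their sum, in which cd74a is counted. In lck_GFP, cell 38 stood apart with 4719 detected genes. Without these 4 cells nkl.2 was at 10 CPM or more in 18 of 28 lck_GFP_rag1 cells, nkl.4 in 6 and prf1.9 in 4, and prf1.1 was so in 4 of 37 lck_GFP cells.

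NK-lysin genes were found mainly in lck_GFP_rag1, and perforin genes in few cells of both lck reporters. A cell was counted as having a gene at 10 CPM or more in that cell. By this rule 20 of 31 lck_GFP_rag1 cells had an NK-lysin gene, 6 had a perforin gene and 5 had both, so that 10 cells had neither. In lck_GFP no cell of 38 had an NK-lysin gene and 6 had a perforin gene. Elsewhere 1 rag2_GFP cell had nkl.3 and 1 cd41_GFPlow cell had prf1.3, and no Runx123_GFP or mpx_EGFP cell had any member. The summed level of the 3 NK-lysin genes was 1733 CPM in lck_GFP_rag1 and 0 CPM in lck_GFP. The summed level of the 5 perforin genes was 296 CPM in lck_GFP_rag1 and 44.03 CPM in lck_GFP.

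**Figure D1:**
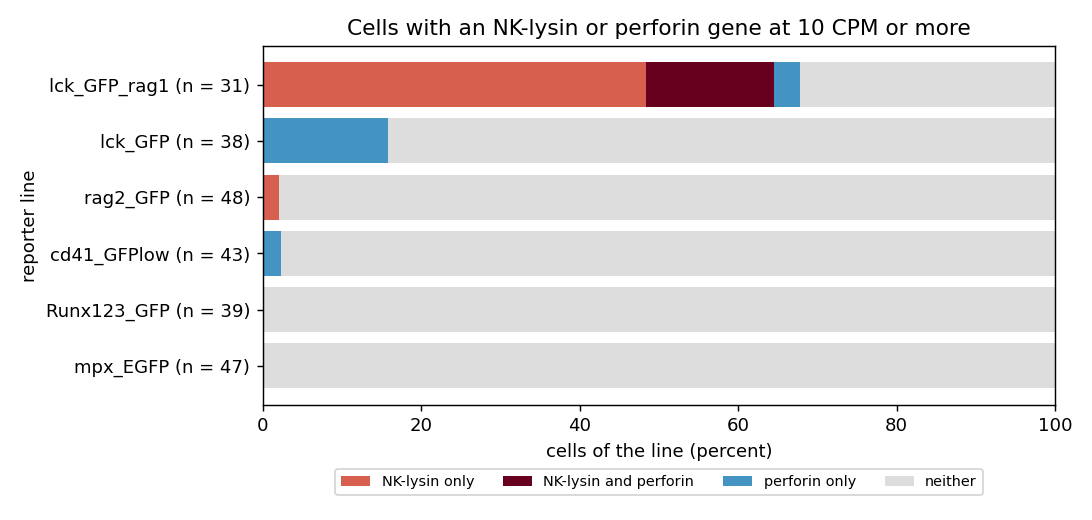
Share of cells of each reporter line (horizontal axis, percent) with an NK-lysin gene only, with NK-lysin and perforin genes, with a perforin gene only or with neither, at 10 CPM or more. In lck_GFP_rag1 67.7% of cells had a member (Clopper-Pearson interval 48.6 to 83.3%), and in lck_GFP 15.8% (6.02 to 31.3%), all of them for perforin genes.

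Among the NK-lysin genes nkl.2 was the copy found in most cells. It had 54732 reads and a level of 1279 CPM (exact Poisson interval 1269 to 1290.1 CPM) over the lck_GFP_rag1 cells. It was at 10 CPM or more in 20 of 31 cells, or 64.5% (Clopper-Pearson interval 45.4 to 80.8%), and in 63.3% of 30 cells after each was thinned to 200000 reads. In those 20 cells it ranged from 10.9 to 7986 CPM with a median of 1757 CPM. The lowest of them was cell 29, where 1 read made 10.9 CPM, and the next was cell 11 with 57.1 CPM from 53 reads, so 19 cells were above 50 CPM. The highest were cell 9 with 7986 CPM and cell 6 with 6842 CPM, and cell 6 gave 19.6% of the gene's reads in the line. Cell 9, with its 5 macrophage markers, had no lck or il2rb read, and without the cells that stood apart the level of nkl.2 was 1202 CPM. The part of that cell's other markers in the result was not tested. Of the 11 remaining cells, cell 24 had 1 read and 10 had none. Among those 10 was cell 30, whose PCR duplicate share was 69.8% against a line median of 27.9%.

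No nkl.2 read was found in lck_GFP, where 3 reads would have been 0.130 CPM, so the level in lck_GFP_rag1 was at least 9820.1-fold higher against that floor. That 0 of 38 lck_GFP cells had the gene allows a share of up to 7.89% by a limit of 3 cells, and of up to 9.25% by the Clopper-Pearson interval. In the other lines nkl.2 appeared as single reads only, in 3 of 47 mpx_EGFP cells, 1 of 43 cd41_GFPlow cells and 1 of 48 rag2_GFP cells, each under 10 CPM, and in no Runx123_GFP cell. Over all other 5 lines together these 5 reads put lck_GFP_rag1 41529-fold higher, with a counting interval of 17794.5 to 127906. The depth of the 2 sets of lck_GFP_rag1 cells was similar in its middle: cells with nkl.2 had a median of 1090507 reads and 1057.5 genes, and cells without it 1311627 reads and 1065 genes. The share of multimapped read pairs was also close, with a median of 5.555% in cells with nkl.2 and 6.10% in cells without it.

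The neighbouring copy nkl.4 was found in fewer cells and never without nkl.2. It had 18753 reads and a level of 438 CPM (432 to 445 CPM) in lck_GFP_rag1 and no read in lck_GFP, at least 3365-fold higher. It was at 10 CPM or more in 7 of 31 lck_GFP_rag1 cells, or 22.6% (9.59 to 41.1%), at 668 to 6649 CPM with a median of 2287 CPM. All 7 had nkl.2, 13 cells had nkl.2 without nkl.4, and 11 had neither. Those 13 cells had 0 reads of nkl.4 each, although nkl.2 reached 3875 CPM in cell 8 and 3301 CPM in cell 4. Among the 13 were also cell 11, with 53 nkl.2 reads, and cell 29, with 1 nkl.2 read, where the lack of nkl.4 reads says little. Outside lck_GFP_rag1 a single read of nkl.4 was found, in an mpx_EGFP cell.

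The proportion of the 2 copies differed from cell to cell. The ratio of nkl.4 reads to nkl.2 reads was 0.334 in cell 6, 0.423 in cell 16 and 0.562 in cell 9. It was 0.755 in cell 12, 0.870 in cell 23, 1.101 in cell 18 and 1.68 in cell 28. The ratio was thus below 1 in 5 cells and above 1 in 2, and these are ratios of reads without correction for gene length, for which no value was used. In the 13 cells with nkl.2 and no nkl.4 the ratio was 0, which says little for cell 29 with its 1 nkl.2 read. With the other cells, the proportion was not fixed across cells. Whether reads were shared between the copies was not tested.

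**Figure D2:**
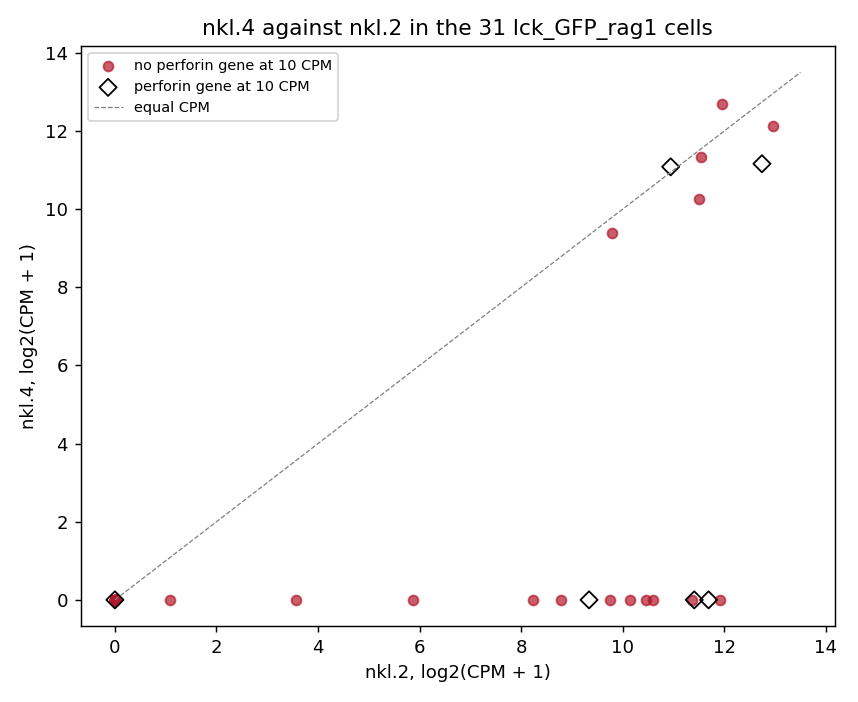
Level of nkl.4 (vertical axis) against nkl.2 (horizontal axis), both as log2(CPM + 1), in the 31 lck_GFP_rag1 cells, 1 point per cell, with open diamonds for cells that had a perforin gene at 10 CPM or more and a dashed line of equal CPM. The 7 cells with nkl.4 lie at the right, between 668 and 6649 CPM of nkl.4, and 13 cells with nkl.2 lie on the horizontal axis with no nkl.4.

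The copy between them in the RefSeq order, nkl.3, was found in 1 lck_GFP_rag1 cell. All 643 reads were in cell 11, at 693 CPM, which was the cell with only 57.1 CPM of nkl.2 and no nkl.4. The line level was 15.03 CPM in lck_GFP_rag1 and 0 CPM in lck_GFP, at least 115-fold higher, and rests on that cell alone. A second cell with the gene was rag2_GFP cell 44, with 13 reads or 18.8 CPM. That cell had 3 B cell markers at 10 CPM or more, summing to 1447 CPM, and no read of any NK and cytotoxic or T cell marker.

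**Figure D3:**
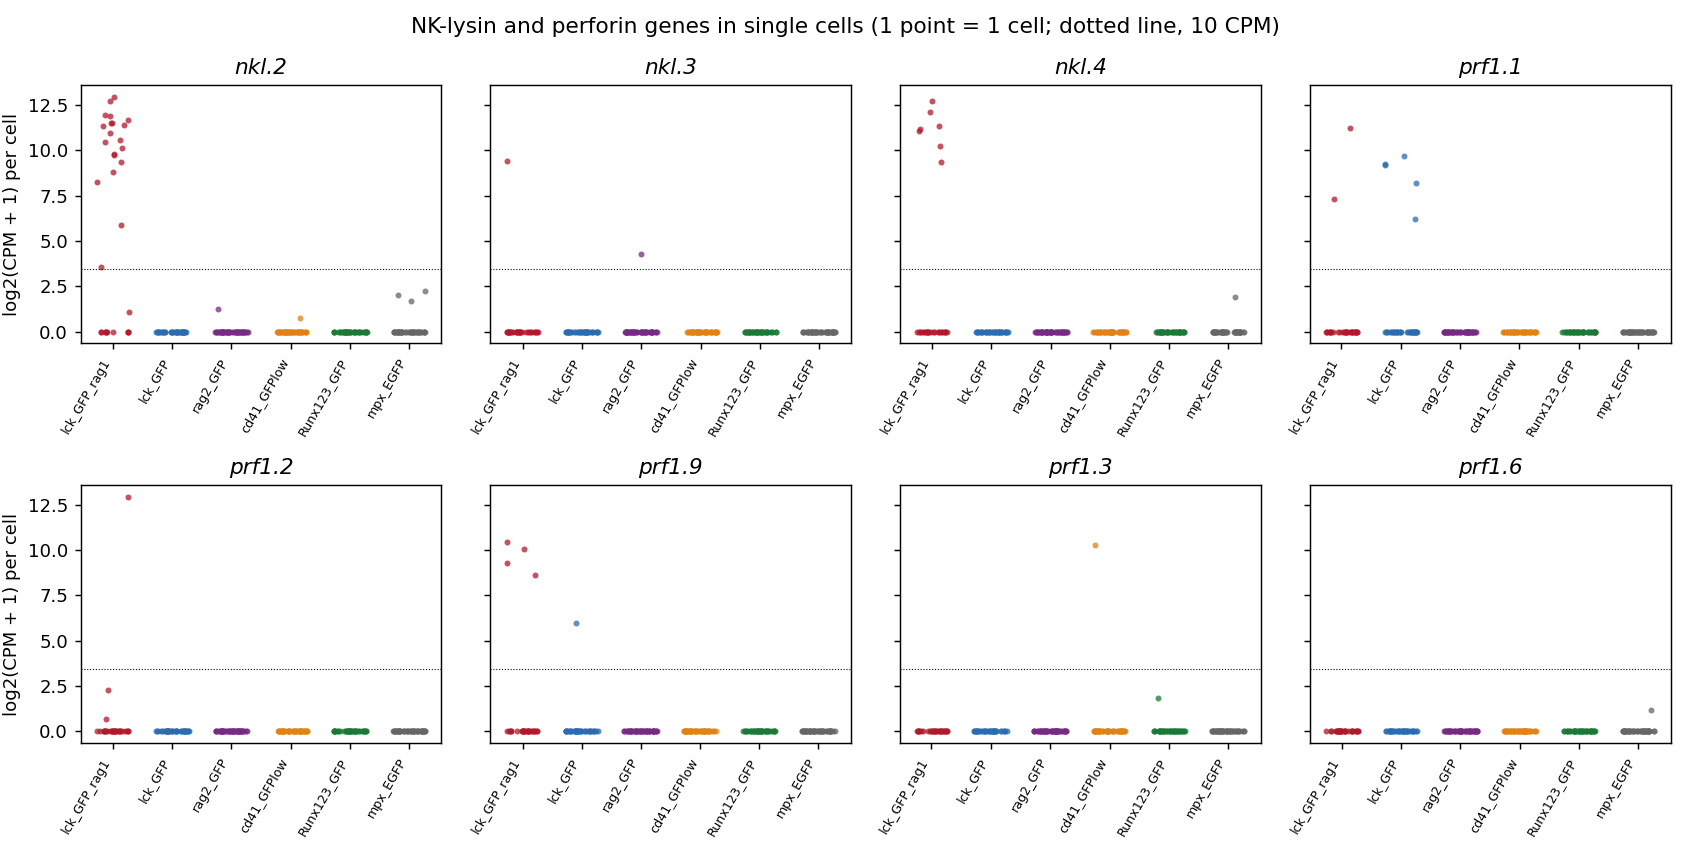
Level of each of the 8 genes in each cell as log2(CPM + 1) (vertical axis), 1 point per cell, by reporter line (horizontal axis), with the dotted line at 10 CPM. Points above the line were found in lck_GFP_rag1 for nkl.2 (20 cells), nkl.4 (7), prf1.9 (4), prf1.1 (2), nkl.3 (1) and prf1.2 (1), in lck_GFP for prf1.1 (5) and prf1.9 (1), in 1 rag2_GFP cell for nkl.3 and in 1 cd41_GFPlow cell for prf1.3.

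Perforin genes were found in few cells, and different copies in different cells. In lck_GFP_rag1, prf1.9 was in 4 cells, prf1.1 in 2 and prf1.2 in 1, and 1 cell (cell 18) had a pair of them. The most widespread, prf1.9, had 3454 reads and a level of 80.7 CPM (78.1 to 83.5 CPM) in lck_GFP_rag1, against 35 reads and 1.52 CPM (1.06 to 2.11 CPM) in lck_GFP. It stood at 1388 CPM in cell 4, 1049.8 CPM in cell 7, 619 CPM in cell 18 and 388 CPM in cell 21, and at 62.8 CPM in lck_GFP cell 18. All 4 lck_GFP_rag1 values were above the value of that lck_GFP cell. The line level was 53.1-fold higher in lck_GFP_rag1 (38.1 to 76.4), over 12.9% of cells (3.63 to 29.8%) there and 2.63% (0.0666 to 13.8%) in lck_GFP. Cell 4 held 43.5% of the lck_GFP_rag1 reads, without which the level there was 46.8 CPM, and the lck_GFP level comes from 1 cell. All 4 lck_GFP_rag1 cells also had nkl.2, and 1 of them (cell 18) had nkl.4.

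The gene prf1.1, like prf1.9, was found in both lck reporters. In lck_GFP_rag1 it stood at 2401 CPM in cell 6 and 159 CPM in cell 15, and cell 6 gave 97.9% of the line's 3847 reads. In lck_GFP it stood at 839 CPM in cell 34, 600.1 CPM in cell 5, 583 CPM in cell 6, 292 CPM in cell 15 and 73.5 CPM in cell 38. The ranges of the cells with the gene overlapped between the lines. By share of cells prf1.1 was in 6.45% of lck_GFP_rag1 cells (0.791 to 21.4%) and 13.2% of lck_GFP cells (4.41 to 28.1%), intervals that overlap. The line level was 89.9 CPM (87.1 to 92.8 CPM) in lck_GFP_rag1 and 42.5 CPM (39.9 to 45.3 CPM) in lck_GFP, which is 2.12-fold higher (1.97 to 2.27). Without the cell with the most prf1.1 reads in each line the log2 ratio of lck_GFP_rag1 over lck_GFP was -3.22 and the level in lck_GFP_rag1 1.94 CPM, so the direction rests on cell 6. No prf1.1 read was found in the other 4 lines.

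The lck_GFP cells with prf1.1, like the other cells of their line, carried T cell genes and no NK-lysin gene. All 5 had lck, 4 had il7r, which encodes the interleukin 7 receptor chain of T cells, and 3 to 6 of the 12 T cell markers were at 10 CPM or more in each. Over the whole line lck was in 30 and il7r in 29 of 38 cells. The median number of T cell markers was 5 in these cells and 5 in the 32 lck_GFP cells without a member. The interleukin 2 receptor gene il2rb was in 4 of these 5 cells and in 7 of 38 lck_GFP cells in all. Of the coreceptor genes, cd4-1 was in 1 of the 5 and cd8a in none. None of the 5 had the granzyme genes gzmk, gzma or gzm3, of which gzm3 was in 2 of 38 lck_GFP cells and the others in none. Their summed NK and cytotoxic markers ran from 636 to 5502 CPM, and those of the 32 lck_GFP cells without a member from 0 to 7444 CPM, with medians of 4020.2 and 835 CPM and ranges that overlap. In lck_GFP_rag1 the cells with prf1.1 differed from each other: cell 6 had nkl.2, nkl.4 and lck, and cell 15 had no NK-lysin gene and no lck read, but gzmk at 3734 CPM.

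The third perforin of lck_GFP_rag1, prf1.2, rested on 1 cell. Of its 5383 reads 99.9% were in cell 18, at 7792 CPM, with 4 reads in cell 9 and 1 in cell 6. No read was found in any other line, so the line level of 126 CPM in lck_GFP_rag1 was at least 966-fold higher than in lck_GFP, and cell 18 alone carries that value. Cell 18 had more members than any other cell, with nkl.2 at 1968 CPM, nkl.4 at 2166 CPM, prf1.2 at 7792 CPM and prf1.9 at 619 CPM. It had none of the 6 granzyme genes at 10 CPM, and no lck read.

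The perforin genes prf1.3 and prf1.6 had no read in either lck reporter. All but 1 of the prf1.3 reads of the series were in cd41_GFPlow cell 30, with 1315 reads or 1242 CPM, and the other was in a Runx123_GFP cell. No marker of the NK, T, B, neutrophil, macrophage, erythroid or thrombocyte lists had a read in cd41_GFPlow cell 30. For prf1.6 the series held 1 read, in an mpx_EGFP cell. Among the neighbouring pairs, prf1.9 and prf1.1 were never found in the same cell in lck_GFP_rag1 (0 of 31) or lck_GFP (0 of 38). In lck_GFP_rag1 prf1.9 was in 4 cells and prf1.1 in 2, and in lck_GFP they were in 1 and 5. With so few cells, unrelated genes can also have no shared cell, so it does not show that the copies exclude each other. How likely that outcome is was not calculated.

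Set against the mean of the other 5 lines, 7 of the 8 members were measured, meaning at 10 CPM or more in at least 1 line, and ratios were taken as log2 of line CPM + 1. At least 4-fold higher in lck_GFP_rag1 were 6 of them, beside 8.59% of the 12660 genes measured. The ratios were 10.27 for nkl.2, 8.77 for nkl.4, 6.99 for prf1.2, 5.97 for prf1.9, 3.89 for nkl.3 and 3.26 for prf1.1. The 1 member at least 4-fold lower was prf1.3, at -2.70, beside 49.7% of all genes, and its value comes from the single cd41_GFPlow cell. The median over the members was 5.97, and over all genes -1.98. Against lck_GFP, 5 of 6 measured members were at least 4-fold higher, beside 30% of the 7812 genes measured, and none was at least 4-fold lower, beside 31% of all genes. The ratios were 10.32 for nkl.2, 8.78 for nkl.4, 6.99 for prf1.2, 5.02 for prf1.9 and 4.003 for nkl.3, and prf1.1 stood at 1.06. Of the members, nkl.2, nkl.3, nkl.4, prf1.2 and prf1.9 reached 10 CPM in lck_GFP_rag1 alone, with at most 1.52 CPM in lck_GFP. Passing the filter in this way already puts a gene past 4-fold, so these counts describe the members and are no separate support. The lists below went through the same filter. In both comparisons the order of the members was nkl.2, nkl.4, prf1.2, prf1.9, nkl.3 and prf1.1, and prf1.2, nkl.3 and most of prf1.1 come from 1 cell each.

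**Figure D4:**
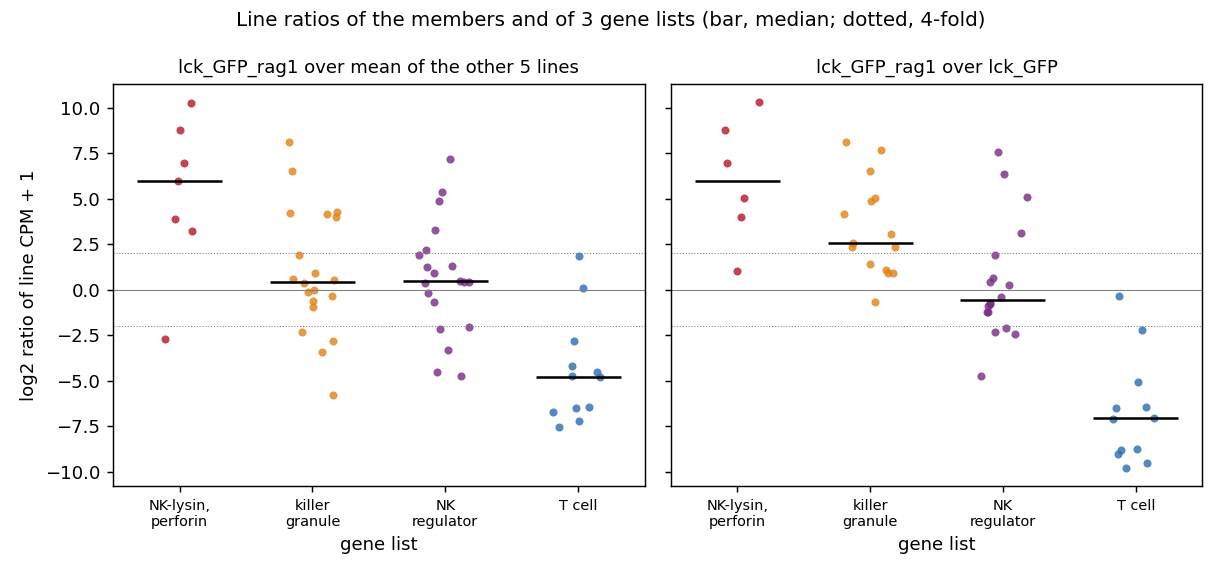
Log2 ratio of line CPM + 1 (vertical axis) of lck_GFP_rag1 over the mean of the other 5 lines (left) and over lck_GFP (right), 1 point per measured gene, for the NK-lysin and perforin genes and the killer granule, NK regulator and T cell lists (horizontal axis), with bars at the medians and dotted lines at 4-fold. The members' medians are 5.97 and 6.003 in the left and right panels, above those of the 3 lists.

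The other genes of the killing machinery were taken from a killer granule list of 25 matched genes, which holds granzymes, granule proteins, the proteins that move and fuse granules, and death ligands. Against lck_GFP, 10 of 15 measured genes were at least 4-fold higher in lck_GFP_rag1 and none lower, beside 30% and 31% of all genes, with a median log2 ratio of 2.55 beside 0.06. Against the mean of the other 5 lines 6 of 20 were higher and 4 lower, beside 8.59% and 49.7% of all genes, with a median of 0.46 beside -1.98. Higher in both comparisons were the granzyme genes gzma, gzmk, gzm3, gzm3.2 and gzm3.3, and faslg, which encodes the Fas death ligand. For gzm3 this holds for line levels only, since the gene was in 2 cells of each lck reporter. It stood at 788 and 421 CPM in lck_GFP_rag1 cells 6 and 12. In lck_GFP cells 13 and 36 it stood higher, at 1460 and 1528 CPM, but these had only 97928 and 48422 reads. The gene gzma was in 3 lck_GFP_rag1 cells, with 51.7% of its reads in cell 12. The level of gzmk was 204 CPM in lck_GFP_rag1, 0 CPM in lck_GFP and 9.62 CPM on average over the other 5 lines. That average comes almost wholly from rag2_GFP, at 48.1 CPM, with 0.0209 CPM in cd41_GFPlow and 0 CPM in Runx123_GFP and mpx_EGFP. The level of gzm3.3 was 278 CPM in lck_GFP_rag1, with no read in any other line. The faslg level of 16.9 CPM in lck_GFP_rag1 rested on cell 20, which held 97.5% of its reads.

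Genes of granule transport and fusion differed less uniformly. Against lck_GFP the protease gene ctsc, which activates granzymes, and stxbp2, vamp8 and snap23.1, genes of vesicle fusion, were also at least 4-fold higher. Of these, ctsc was at 210 CPM in lck_GFP_rag1 and 6.17 CPM in lck_GFP, with 56.1% of its lck_GFP_rag1 reads in cell 25, the cell with macrophage markers. In snap23.1 95.3% of the reads were in cell 10. Against the mean of the other 5 lines these 4 genes were not past 4-fold, and the lower genes were rab27a, vamp7, snap23.2 and tnfsf10, each at 0.187 CPM or less in lck_GFP_rag1. The serglycin gene srgn, whose product packs granule proteins, was at 1307 CPM in lck_GFP_rag1, 492 CPM in lck_GFP and 9692 CPM in mpx_EGFP.

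Granzyme and NK-lysin genes were only partly in the same cells. Any of 6 granzyme genes was at 10 CPM or more in 13 of 31 lck_GFP_rag1 cells, 10 of them with nkl.2 and 3 without; cell 29 is among the 10 through 1 read of each gene. Of the 20 cells with nkl.2, 10 had no granzyme gene. Of the 13 cells with a granzyme gene 3 had a perforin gene, and 8 of the 31 cells had none of nkl.2, a perforin or a granzyme gene. The copy gzm3.3 was in 10 cells, 8 with nkl.2, at up to 2255 CPM in cell 20. By contrast, gzmk was in 5 cells, 2 with nkl.2, and its 2 highest cells, cell 24 at 3902 CPM and cell 15 at 3734 CPM, had no nkl.2 at 10 CPM.

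**Figure D5:**
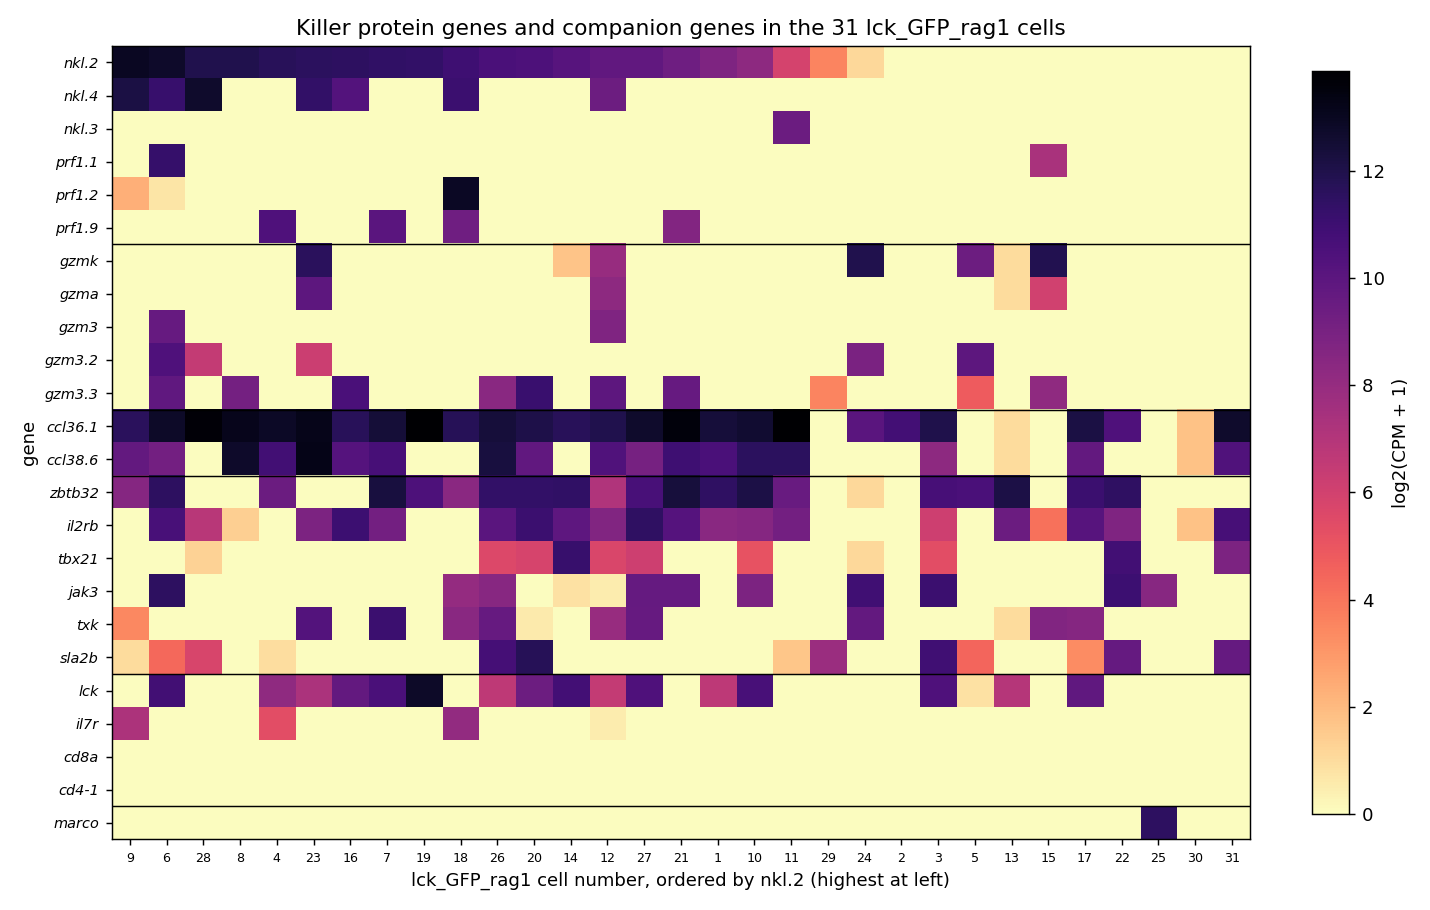
Level of the member, granzyme, chemokine, regulator, T cell and macrophage genes (rows) in the 31 lck_GFP_rag1 cells (columns, in the order of nkl.2 with the highest at the left), coloured by log2(CPM + 1). The chemokine gene ccl36.1 fills 19 of the 20 columns with nkl.2, the perforin and granzyme rows are sparse, cd8a and cd4-1 are empty, and marco is filled in cell 25 alone.

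Regulators of killer lymphocytes were taken from an NK regulator list of 30 entries, of which 21 matched a gene by symbol. The entries without a match, among them eomesa, eomesb and il18r1, were not looked at. Against the mean of the other 5 lines 5 of 20 measured genes were at least 4-fold higher in lck_GFP_rag1 and 5 lower (median 0.46), beside the 8.59% and 49.7% of all genes. Against lck_GFP 4 of 18 were higher and 4 lower (median -0.55), which is no larger a share than the 30% and 31% of all genes. Higher in both were tbx21, the T-bet transcription factor gene, zbtb32, another transcription factor gene, il2rb and the receptor kinase gene jak3. The level of tbx21 was 190.0 CPM in lck_GFP_rag1 and 0 CPM in lck_GFP, and that of il2rb 742 CPM in lck_GFP_rag1 and 84.3 CPM in lck_GFP. Lower in both were nfil3-5, il2rgb and stat5b. Of the 12 genes of the T cell list, 11 were at least 4-fold lower than in lck_GFP and 10 lower than the mean of the other 5 lines, and none higher. The remaining gene in the comparison with lck_GFP was lck.

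Cell by cell, the regulators higher in both comparisons did not follow the NK-lysin gene closely, nor did the kinase genes lck and txk, which are not in that list. Among the 20 cells with nkl.2, zbtb32 was in 15, il2rb in 14, lck in 13, and tbx21, jak3 and the kinase gene txk in 6 each. Among the 11 cells without nkl.2, il2rb was in 6, zbtb32 in 5, jak3 in 4, and lck, tbx21 and txk in 3 each. The 10 lck_GFP_rag1 cells with no member differed in their markers. Their summed NK and cytotoxic markers ran from 7.25 to 10971 CPM with a median of 7064 CPM, against 228 to 23856 CPM with a median of 13338 CPM in the 20 cells with nkl.2. These ranges overlap. The lowest value among the cells with nkl.2 is that of cell 29, and cell 25, with 354 CPM, is among the cells with no member. The lowest value among the cells with no member is that of cell 30. That cell had a PCR duplicate share of 69.8% and no NK, T cell or macrophage marker at 10 CPM or more, and it was kept in all counts.

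Genes most like nkl.2 in their pattern over the 31 cells were sought by Pearson's r of log2(CPM + 1). The ranking took genes at 10 CPM or more in at least 6 lck_GFP_rag1 cells. It left out the members, rows without a symbol and genes with clone-style names. The first 5 were the chemokine gene ccl36.1 at 0.63, ccl38a.5 at 0.60, ccl38.1 at 0.55, the thioredoxin gene TXN at 0.50 and dicp1.1, of an immune receptor family, at 0.49. Their line levels differed widely. In lck_GFP_rag1 and lck_GFP, ccl36.1 was at 4930 and 202 CPM, TXN at 715 and 257 CPM, and dicp1.1 at 130 and 0 CPM. The gene ccl38a.5 was at 68.4 and 36.4 CPM, and ccl38.1 at only 4.70 and 4.73 CPM, in 6 lck_GFP_rag1 cells. In single cells, ccl36.1 was present in 19 of the 20 cells with nkl.2 and in 6 of the 11 without, and ccl38.6 in 15 and 3. For nkl.4 the first 5 were cox17 at 0.65, RASGRP2 at 0.61, flna at 0.57, ERCC1 at 0.55 and lamp3 at 0.53. The lysosomal membrane gene lamp3 was in all 7 cells with nkl.4 and in 18 of 31 cells. These correlations are descriptions over cells of 1 line and plate that share depth and dropout, and those of nkl.4 rest on 7 cells with the gene. The counts of cells with both genes come from the same values and are no separate support.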

How the data were processed

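Single zebrafish kidney marrow cells were profiled with Smart-seq2. The deposited counts are whole numbers of reads for each Ensembl gene in each cell, and their column totals equal the reads per cell that the authors list for all 246 cells. The submitters' processing notes name STAR, Picard, featureCounts and build GRCz10, without versions or settings. Per the file headers, a second deposited table lists for each well the multimapped percent and the PCR duplicate fraction. Of its 384 wells 138 have no cell here.

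Counts were summed per line and scaled to CPM, with exact Poisson intervals for sums and Clopper-Pearson intervals for shares of cells. Symbols came from a table of Ensembl names. Genes under 10 CPM in every line compared were left out of ratios, and the pseudocount was 1 CPM. List genes were matched by symbol, ignoring capitals, and entries without a match were not looked at. This matched 25 of 33 entries of the killer granule list, 21 of 30 of the NK regulator list and 12 of 17 of the T cell list. Of the NK and cytotoxic markers 11 of 13 entries were matched. No doublet caller was run, and no test was made, since each line is 1 sample. The 4-fold rule was checked on simulated line sums, and the likeness measure on simulated cells with a planted gene. Levels that rest on 1 cell were not simulated, and intervals and shares were not checked in this way. Alternatives were TMM factors (edgeR 4.0.16), DESeq2 1.42.0 size factors, other thresholds and pseudocounts, thinning, and leaving out cells. Python 3.11.15, pandas 2.3.3, numpy 2.4.6, scipy 1.17.1 and R 4.3.3 were used. The members and gene lists were chosen with earlier results of these data known. Every member is named, list genes come from the lists, and likeness names the first 5 genes over the lck_GFP_rag1 cells and the first 10 over all cells. Likeness left out the members, rows without a symbol and genes with clone-style names.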

Additional observations from a re-analysis of the deposited data

How the results depend on the processing

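The shares of lck_GFP_rag1 cells with nkl.2 and with nkl.4 stayed within their limits under every alternative run. The level of nkl.4 did not: it was 438 CPM, 678 CPM with cells thinned and 139 CPM in cells with at least 1000 genes. In those last cells the nkl.4 share was 16.7%, and its log2 ratio was 7.12 over the mean of the other 5 lines and 7.13 over lck_GFP. The nkl.2 level in lck_GFP_rag1 was 1497 CPM when averaged over cells, 1549.5 with cells thinned, 1068 without the top cell, 691 in cells with at least 1000 genes, 1388 with TMM factors and 1344 with DESeq2 size factors. In the same order its log2 ratio was 10.48, 10.54, 10.04, 9.39, 10.38 and 10.34 over the mean of the other 5 lines, and 10.55, 10.60, 10.06, 9.44, 10.44 and 10.39 over lck_GFP. With a pseudocount of 0.1 CPM these ratios were 13.20 and 13.64, and with 10 CPM 7.01 and 7.01. Over the mean of the other 5 lines nkl.3 was at -0.32 in cells with at least 1000 genes, because its 1 cell is left out, and prf1.1 at -1.09 without each line's top cell and -4.43 in cells with at least 1000 genes.

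The granule genes lower than the other 5 lines were 2 at 8-fold and 2 with a filter of 50 CPM, and the regulator genes 3 and 2. Against lck_GFP the lower granule genes were 1 with no filter, and the lower regulator genes 1 at 8-fold, 1 with a filter of 50 CPM and 2 without each gene's top cell. TMM factors moved the median of all genes by 0.12 (log2) over the other 5 lines. Without the 4 cells that stood apart, an alternative chosen after seeing the data, no count moved by over 1.5 times. Depth limits the absence of a member to 3 reads per line, or 0.130 CPM in lck_GFP, among the cells sampled. The number of cells limits it too, since 0 of 38 lck_GFP cells with nkl.2 allows a share of up to 9.25%. The folds given as at least a value therefore hold for the sampled cells only.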

Other observations

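Likeness was also ranked over all 246 cells, with the same rows left out. The genes whose pattern was most like that of nkl.2 were ccl36.1 (r 0.77), ccl38.6 (0.68), lamp3 (0.67), nitr1a (0.64), nitr1f (0.62), ccl34b.4 (0.62), zbtb32 (0.61), ccl38a.5 (0.59), il2rb (0.58) and gzm3.3 (0.56). The nitr genes encode receptors of the immunoglobulin family found in bony fish. The gene nitr1f was at 10 CPM or more in 7 cells, all of them with nkl.2, and nitr1a in 10 cells, 9 of them with nkl.2. The chemokine gene ccl34b.4 was at 1272 CPM in lck_GFP_rag1 and 0 CPM in lck_GFP, and 9 of its 12 cells had nkl.2. These counts come from the same values as the ranking that picked the genes, and are no separate support for it.

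For nkl.4 the first 10 genes over all cells were ccl34b.4 (0.62), lamp3 (0.59), kng1 (0.53), ccl36.1 (0.45), il21r.1 (0.43), mrtfbb (0.36), gzm3.3 (0.35), ccl38.6 (0.34), il2rb (0.32) and dicp1.1 (0.32). Of the 7 cells with nkl.4, 6 had ccl34b.4, a count from the same values as the ranking. Over all cells these values also carry the difference between lines.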
